A study of Homo sapiens with 6 samples.

Results

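A set of 34 genes of the p53 pathway, nearly all of them its targets, was followed in the human cell line KMS-27, which comes from a multiple myeloma, after silencing of Che-1. The set was given as gene symbols chosen for their place in the p53 pathway, with earlier results of these data known. It holds 31 genes that are in both gene tables, which cover 12075 and 16444 genes. The other 3 (TP53I11, PHLDA3 and SPATA18) are in neither and were not analysed here.

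p53 is a transcription factor that is kept low by the ubiquitin ligase MDM2, which binds it together with the related MDM4. Stress to DNA, to ribosome assembly or to transcription can release p53 from MDM2, after which it binds its response elements and raises a set of genes that halt the cell cycle, repair DNA, alter metabolism or prime apoptosis. MDM2 is among those genes, which closes a negative feedback loop. Che-1, the protein encoded by AATF, binds RNA polymerase II and has been linked to the choice between arrest and apoptosis.

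KMS-27 cells received either a control siRNA, named siControl in the labels, or one that targets Che-1 (siChe-1), with 3 libraries in each group. Both groups are the same line with bone marrow given as its tissue, and no other genotype, agent or time is named in the labels. Each library started from 500 ng of RNA depleted of ribosomal RNA and prepared by a stranded protocol, and external RNA controls (ERCC spike-ins) were counted beside the genes. The labels say that libraries were made in triplicate but not that they came from separate cultures, so the p-values rest on a spread among libraries that may be only technical. In bulk RNA, fewer cells expressing a gene and less of its RNA per cell cannot be told apart.

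Values are shown on 3 scales. FPKM (fragments per kilobase of transcript, corrected for library size) covers all 6 libraries. It was rescaled here by a median of ratios, which evens out the typical ratio of a gene to its average over libraries. It was tested with limma on log2(FPKM + 1), a scale that understates the change of low genes. Whole reads could be recovered for 5 libraries, siControl replicates 1 to 3 and siChe-1 replicates 1 and 2, and were tested with edgeR and given as CPM (read counts scaled to a common library size with TMM). Both tests measure a change relative to other genes. The authors' deposited table gives a further scale, the change against the spike-ins, for the same 5 libraries. A gene is called where the Benjamini-Hochberg adjusted p, taken over all genes tested, is under 0.05.

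Recovered gene reads ranged from 19151115 to 21786379 per library. Spike-in reads numbered 351573 to 519573 in siControl, and 835414 and 1041244 in siChe-1 replicates 1 and 2. siChe-1 replicate 3 stood apart from these, with 379232 spike-in reads, and is not among the libraries of the spike-in comparison. AATF fell from a mean of 98.1 ± 12 (SD, n = 3) to 15.6 ± 1.33 FPKM (n = 3), a log2 change of -2.57 (adjusted p = 0.000117 by limma). Of 9 plasma cell markers 8 were in the FPKM table, with summed levels of 7309 to 10717 FPKM in siControl and 8681 to 12169 FPKM in siChe-1. IGJ made up most of each sum. Within the list CD38 was at 21.3 to 22.1 FPKM in siControl and 29.5 to 40.1 FPKM in siChe-1, and XBP1 at 257 to 325 and 187 to 212 FPKM, and their part in the results was not tested. None of the B cell, myeloid or stromal markers were listed there, and CD3G and HBB, the only T cell and erythroid markers listed, stayed at or under 0.73 FPKM.

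The p53 targets did not move as a block. With limma, 19 of the 31 had a mean FPKM of at least 10 and were tested: 5 were higher in siChe-1, 2 were lower and 12 were not called. Those 7 are 36.8% of the members tested, beside 30.2% of all 6285 genes, with 15.1% of all genes higher and 15.1% lower. The split of all genes moved with the scaling, from 949 higher and 948 lower to 592 and 1279 with FPKM as deposited and to 1221 and 713 with upper-quartile scaling. The members' calls were then 3 higher and 2 lower, and 6 higher and 2 lower. The members' median log2 change was 0.07 and that of all genes -0.00. With edgeR, which could test all 31, 6 were higher, 6 were lower and 19 were not called, or 38.7% beside 28.8% of all 12468 genes (14.0% higher, 14.8% lower). The members' median was 0.04 on that scale, beside quartiles of -0.26 and 0.28 over all genes. A limma fit with a lower FPKM minimum of 1 tested 28 members and called 8 (5 higher, 3 lower), or 28.6% beside 27.2% of 10778 genes, and there POLH, TNFRSF10B, XPC and CYFIP2 joined the calls while DDB2, GADD45B and PERP left them.

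TP53INP1, ZMAT3, FAS and TRIAP1 were called by both tools, or 21.1% of the 19 members tested by both, beside 23.4% of 6119 genes. At least 1 tool called 15 members, or 48.4% beside 32.1% of 12634 genes. Of the 19 members tested by both, 16 had the same sign. The FPKM minimum can be passed through 1 group alone, as FAS did with 8.93 FPKM in siChe-1, so these counts describe the members that could be tested and not the whole set. Without overlap between the groups of libraries were 8 of the 19 members in FPKM (6 higher, 2 lower), or 42.1% beside 45.3% of all genes. In CPM they were 16 of 31 (7 higher, 9 lower), or 51.6% beside 53.5%. Both shares are close to those of all genes.

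**Figure D1:**
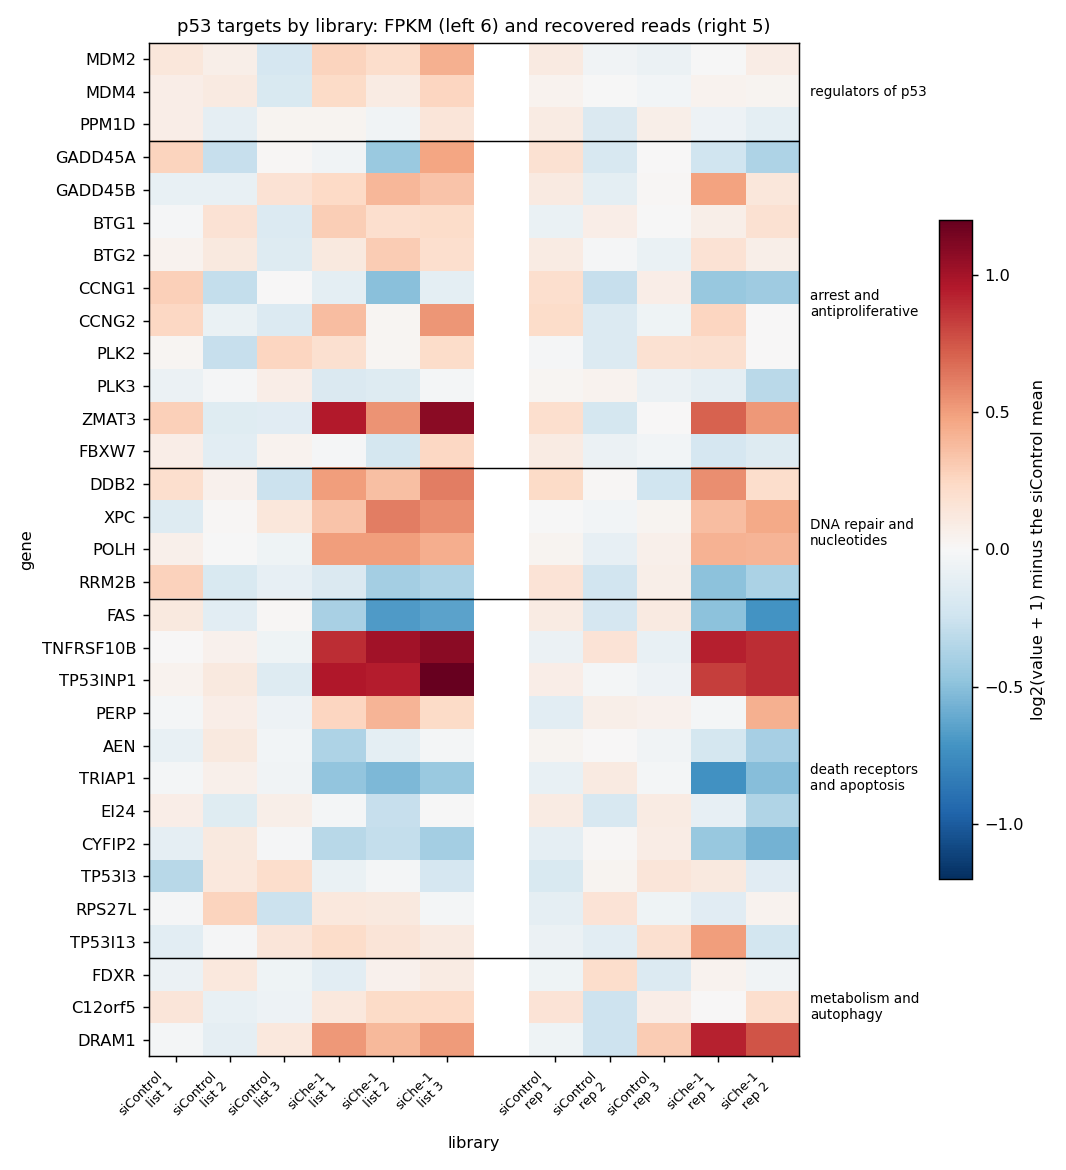
Each cell is the log2 of the value plus 1 minus the siControl mean, for 31 p53 targets (vertical axis, grouped by role) and each library (horizontal axis), with FPKM in the left block and CPM from recovered reads in the right block. FPKM values carry no replicate number and are shown in the order of the file. TNFRSF10B, TP53INP1 and ZMAT3 are red in every siChe-1 library of both blocks, while FAS, TRIAP1 and CYFIP2 are blue in every one.

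The p53 response element consists of a pair of 10-base motifs (decamers), each fitting the p53 decamer consensus, which is its own reverse complement in form, so 1 search covers both strands. RefSeq start-site windows (build GRCh38.p14, 250 bases before to 50 after each start) were given for 29 of the 34 members, as 45 windows. A perfect decamer was found in 7 of them (15.6%), beside 6.63% of 35116 windows of the same length. The members that held one were AEN, DDB2, EI24, FAS, FDXR, PLK2 and RPS27L. A pair of decamers 0 or 1 base apart was in 7 of all windows (0.0199%), of which 1 belonged to a member, DDB2. Stretches are shown from the 3 of these members that were called by at least 1 tool. DDB2 was called higher by limma alone, FAS lower by both tools and AEN lower by edgeR alone. EI24, FDXR, PLK2 and RPS27L were called by neither tool. Capitals mark the decamers. The DDB2 stretch is chr11:47214949-47215003 on the plus strand, and its pair lies 5 to 25 bases into the transcript. The FAS stretch is chr10:88991279-88991330 and the AEN stretch chr15:88621276-88621327, both on the plus strand and both upstream of the start.
DDB2: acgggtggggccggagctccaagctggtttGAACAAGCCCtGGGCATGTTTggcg
FAS: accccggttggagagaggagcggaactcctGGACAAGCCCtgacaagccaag
AEN: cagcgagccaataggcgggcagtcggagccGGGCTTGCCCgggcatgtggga
These matches describe letters only. Whether p53 binds them in KMS-27 was not measured, and a window without a decamer says nothing of elements elsewhere in a gene. TP53INP1, GADD45A, RRM2B, TNFRSF10B and PHLDA3 had no window.

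MDM2, MDM4 and PPM1D, the 3 members that hold p53 in check directly, were not called by either tool. MDM2 (hg19, chromosome 12, 69201971 to 69239212, plus strand) measured 30.95, 29.64 and 24.34 FPKM in siControl and 34.13, 32.81 and 38.26 FPKM in siChe-1. Every siChe-1 value was above every siControl value, yet the log2 change of 0.30 ± 0.11 (SE) missed the threshold with an adjusted p of 0.0695 by limma. It passed in 1 of 23 other settings, upper-quartile scaling (0.37, adjusted p = 0.0397 by limma). In recovered reads MDM2 stood at 243.06, 219.69 and 214.96 CPM in siControl and 224.60 and 240.20 CPM in siChe-1, a change of 0.04 with overlapping groups.

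MDM4, the partner of MDM2 that blocks the activation domain of p53, measured 12.72, 12.96 and 10.43 FPKM in siControl and 14.19, 12.88 and 14.50 FPKM in siChe-1. The groups overlapped, and its log2 changes were 0.19 by limma and 0.04 by edgeR. In the authors' deposited table, 1 of its 3 listed transcripts, a non-coding one, held most of its signal, with 9.41 FPKM in siControl and 10.7 FPKM in siChe-1. PPM1D, a phosphatase that removes activating phosphates from p53, ranged from 15.32 to 18.51 FPKM over the 6 libraries, with changes of 0.05 by limma and -0.09 by edgeR.

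Among members that slow the cell cycle or growth, ZMAT3 changed the most. ZMAT3 is a zinc finger protein that binds RNA and restrains proliferation. It lies on chromosome 3 from 178735011 to 178789656 on the minus strand of hg19. Its levels were 30.06, 22.12 and 22.24 FPKM in siControl and 48.44, 36.19 and 53.18 FPKM in siChe-1. Every siChe-1 library was above every siControl library, and the mean rose from 24.8 ± 4.55 to 45.9 ± 8.77 FPKM (SD, n = 3 each). The log2 change was 0.86 ± 0.17 (SE; adjusted p = 0.00914 by limma) and, in reads, 0.61 ± 0.13 (SE; adjusted p = 0.00319 by edgeR). The call was lost in 1 of 23 other settings, without siChe-1 replicate 1 (0.51, adjusted p = 0.0547 by edgeR). In the authors' deposited table the more abundant of its 2 transcripts was called, with a log2 of 0.90, and the other was not.

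GADD45B, a stress sensor that acts on p38 and JNK kinase signalling, measured 16.78, 16.78 and 20.29 FPKM in siControl and 21.24, 23.94 and 22.94 FPKM in siChe-1. The groups did not overlap, and limma gave a log2 change of 0.33 ± 0.10 (SE; adjusted p = 0.0372). This call held in only 7 of 23 other settings: edgeR gave 0.32 (adjusted p = 0.0693), and leaving out any of 5 of the 6 FPKM libraries also ended it (adjusted p of 0.0571 to 0.106 by limma). Without siChe-1 replicate 1 its change in reads was 0.14. Its relative GADD45A, which binds PCNA and p21, spread from 9.58 to 19.04 FPKM within siChe-1 alone. Its limma change was -0.01 and its edgeR change -0.33. Neither passed, but without siControl replicate 2 edgeR gave -0.43 (adjusted p = 0.0469).

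CCNG1 encodes cyclin G1, which recruits the phosphatase PP2A to MDM2, and was the most abundant member. It measured 174.82, 117.68 and 143.99 FPKM in siControl and 132.06, 100.87 and 132.14 FPKM in siChe-1, with overlapping groups and no call by limma (-0.25, adjusted p = 0.308). In reads it stood at 330.87, 236.32 and 303.08 CPM in siControl and 209.98 and 213.76 CPM in siChe-1. There the groups did not overlap, and edgeR gave -0.45 ± 0.14 (SE; adjusted p = 0.0231). edgeR did not call CCNG1 without siControl replicate 1 or 3, or without either siChe-1 replicate (adjusted p of 0.0731 to 0.134 by edgeR).

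BTG2 and BTG1 are antiproliferative proteins that bind the CCR4-NOT deadenylase. BTG2 was the next most abundant member after CCNG1, with 103.78, 109.31 and 90.40 FPKM in siControl and 109.30, 125.18 and 116.22 FPKM in siChe-1. It changed by 0.21 by limma (adjusted p = 0.17), with overlapping groups. BTG1 ranged from 3.62 to 4.84 FPKM in siControl and from 4.97 to 5.37 FPKM in siChe-1, without overlap. Its CPM groups overlapped, and edgeR did not call it (0.13, adjusted p = 0.499). FBXW7 is the substrate receptor of a ubiquitin ligase that degrades cyclin E and MYC. CCNG2, PLK2, PLK3 and FBXW7 were not called by any test of change relative to other genes that covered them. Of these, PLK2 and PLK3, polo-like kinases of the stress response, were the lowest beside DRAM1, at 0.37 to 1.19 FPKM. Against the spike-ins, the authors' comparison called CCNG2, PLK3 and FBXW7 lower (-1.07, -1.49 and -1.41) and did not call PLK2.

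Pairs of related members were compared within each library, where depth largely cancels for abundant genes but not for those near 1 FPKM, such as PLK2 and PLK3. The change of CCNG1 minus that of CCNG2 was -0.56 on the log2(FPKM + 1) scale. On that scale the log2 ratio of siChe-1 libraries (3.79 to 3.95) lay wholly below that of siControl libraries (4.24 to 4.61). For PLK2 minus PLK3 the difference in change was 0.26, also without overlap, but with a pseudocount of 0.1 it was 0.56 and the groups overlapped. MDM2 minus MDM4 gave 0.11, BTG1 minus BTG2 gave 0.03 and GADD45A minus GADD45B gave -0.33, all with overlap. In reads GADD45A minus GADD45B was -0.62 without overlap, and MDM2 minus MDM4 was 0.00. The exact permutation test, two-sided, gave p = 0.1 for CCNG1 and CCNG2 and for PLK2 and PLK3, the smallest that 3 against 3 libraries allows, and 0.25 for each after adjustment over the 5 pairs. For the other 3 pairs the exact permutation p was 0.2 to 0.8. No pair could therefore pass the threshold.

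**Figure D2:**
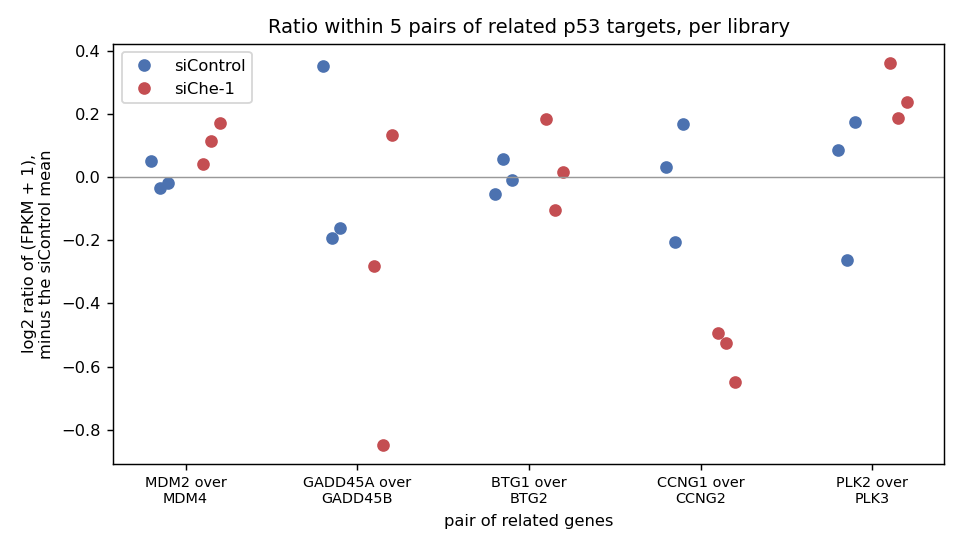
The vertical axis gives the log2 ratio of 2 related p53 targets in each library, on FPKM + 1, minus the siControl mean of that ratio, and the horizontal axis gives the 5 pairs. Blue points are siControl and red points siChe-1 (n = 3 each). Only CCNG1 over CCNG2 and PLK2 over PLK3 show groups that do not overlap.

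Of the 4 DNA repair and nucleotide members, DDB2 was called higher by limma, XPC and POLH were called higher by edgeR, and RRM2B was called lower by edgeR. DDB2 and XPC recognise ultraviolet damage for nucleotide excision repair, and POLH encodes polymerase eta, which copies past such damage. DDB2, with the paired decamer shown above, measured 19.64, 17.58 and 13.93 FPKM in siControl and 24.25, 22 and 26.32 FPKM in siChe-1. The groups did not overlap, and limma gave 0.49 ± 0.13 (SE; adjusted p = 0.0258). The call held in 9 of 23 other settings. edgeR gave 0.39 with overlapping groups (adjusted p = 0.0615), and 0.20 without siChe-1 replicate 1 (adjusted p = 0.459). Leaving out 1 of 3 FPKM libraries (siControl value 3, or siChe-1 value 1 or 3, in the order of the file) also ended the limma call, with adjusted p of 0.0632 to 0.0915. Its 1 transcript was called in the authors' deposited table with a log2 of 0.41 and a q of 0.00525.

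XPC and POLH were below the FPKM minimum of 10 and were tested in reads. XPC stood at 33.49, 32.90 and 34.37 CPM in siControl and 43.81 and 46.34 CPM in siChe-1. Its log2 change was 0.42 ± 0.11 (SE; adjusted p = 0.0123 by edgeR), which missed the threshold without siChe-1 replicate 2 (adjusted p = 0.0734 by edgeR). POLH stood at 74.22, 67.69 and 75.23 CPM in siControl and 96.84 and 96.07 CPM in siChe-1. Its change was 0.41 ± 0.11 (SE; adjusted p = 0.0105 by edgeR), which missed without siChe-1 replicate 1 (adjusted p = 0.054 by edgeR). In FPKM, where all 6 libraries count, neither gene's groups overlapped: the means were 4.52 and 6.83 FPKM for XPC and 7.72 and 11.1 FPKM for POLH.

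RRM2B, the ribonucleotide reductase subunit that supplies nucleotides for repair, stood at 121.51, 92.38 and 113.71 CPM in siControl and 76.97 and 83.26 CPM in siChe-1, a change of -0.45 ± 0.13 (SE; adjusted p = 0.0185 by edgeR). In FPKM the groups overlapped, and limma gave -0.31 (adjusted p = 0.109). Of 3 transcripts listed for it in the authors' deposited table, 1 was called lower, from 13.7 to 6.11 FPKM (log2 of -1.17, q = 0.0471), and the most abundant was not called. edgeR called RRM2B without siControl replicate 2, but not when any of the other 4 libraries was left out (adjusted p of 0.0617 to 0.136 by edgeR).

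Relative to other genes, the 2 death receptors of the set moved in opposite directions. FAS binds FAS ligand and TNFRSF10B (DR5) binds TRAIL, and both start apoptosis through caspase 8. FAS, listed on chromosome 10 at a locus from 90694831 to 90775542 on hg19 that extends beyond the gene, measured 14.90, 12.45 and 13.78 FPKM in siControl and 10.23, 8.15 and 8.41 FPKM in siChe-1. Every siChe-1 value was below every siControl value. The change was -0.57 ± 0.12 (SE; adjusted p = 0.0112 by limma) and -0.63 ± 0.14 in reads (SE; adjusted p = 0.00443 by edgeR). It missed the threshold in 1 of 22 other settings, without siChe-1 replicate 2 (-0.52, adjusted p = 0.0606 by edgeR). None of its 3 transcripts was called in the authors' deposited table.

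TNFRSF10B measured 3.07, 3.20 and 2.91 FPKM in siControl and 6.47, 7.14 and 7.6 FPKM in siChe-1. In reads it stood at 15.87, 18.95 and 15.66 CPM in siControl and 32.81 and 31.82 CPM in siChe-1. Its groups were far apart on both scales, and edgeR gave 0.94 ± 0.13 (SE; adjusted p = 0.000223), a call that held in all 11 other settings. Neither of its 2 transcripts was called in the authors' deposited table (q of 0.137 and 0.149). The difference between the changes of FAS and TNFRSF10B was not itself tested.

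TP53INP1 had the largest change of the members tested by limma. It encodes a nuclear protein that enhances phosphorylation of p53 by HIPK2 and has a further role in autophagy. It measured 31.88, 33.67 and 27.63 FPKM in siControl and 61.07, 60.56 and 73.73 FPKM in siChe-1. In reads it stood at 164.04, 153.04 and 149.08 CPM in siControl and 277.53 and 287.16 CPM in siChe-1. The call held in all 23 other settings, where the log2 change ran from 0.83 to 1.11. Both of its transcripts were called higher in the authors' deposited table, with log2 values of 1.11 and 0.90.

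TRIAP1, a small mitochondrial protein that protects cells from apoptosis, was lower. It lies on chromosome 12 from 120881764 to 120884215 on the minus strand of hg19. It measured 30.60, 32.56 and 30.22 FPKM in siControl and 22.08, 21.14 and 22.60 FPKM in siChe-1. Each group spread over less than the gap between them, and edgeR gave -0.64 ± 0.14 in reads (SE; adjusted p = 0.00357). Of 23 other settings 1 missed the threshold, without siChe-1 replicate 1 (-0.53, adjusted p = 0.0501 by edgeR).

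**Figure D3:**
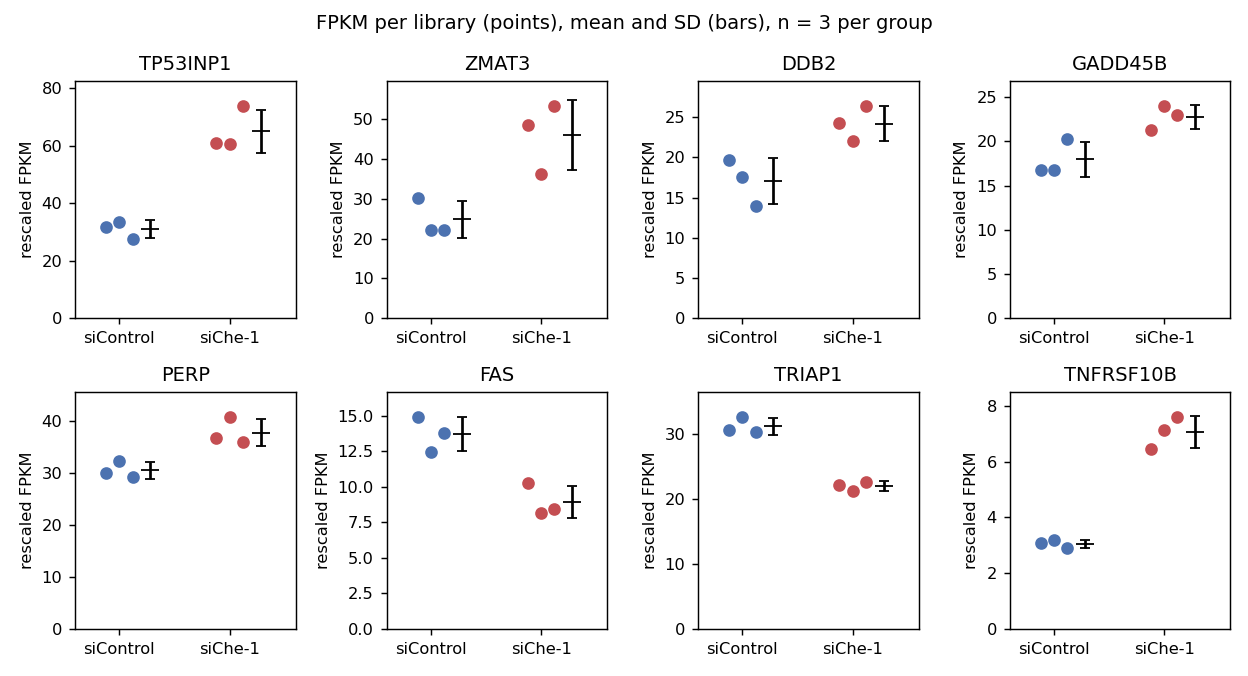
Rescaled FPKM (vertical axis, from 0) of 8 p53 targets in each siControl (blue) and siChe-1 (red) library, with the mean and SD of each group in black (n = 3). TNFRSF10B and the members called by limma are shown, so the panels do not stand for the whole set. The groups do not overlap in any panel. Over all genes tested by limma, the FPKM groups of 45.3% did not overlap. siChe-1 points lie higher in 6 panels and lower for FAS and TRIAP1. TNFRSF10B was under the FPKM minimum of 10 and was called in reads, and in FPKM at a minimum of 1.

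PERP, a membrane protein of desmosomes with a part in p53-driven apoptosis, measured 30.03, 32.40 and 29.22 FPKM in siControl and 36.79, 40.82 and 35.96 FPKM in siChe-1. limma gave 0.30 ± 0.08 (SE; adjusted p = 0.0285). This call held in only 5 of 23 other settings. In reads the groups overlapped, at 107.09, 123.45 and 121.73 CPM in siControl and 115.18 and 157.47 CPM in siChe-1, and edgeR gave 0.22 (adjusted p = 0.249). Without siChe-1 replicate 2 the direction turned, to -0.03 (adjusted p = 0.907 by edgeR). In FPKM, leaving out 1 of 5 libraries ended the limma call, with adjusted p of 0.0585 to 0.0958.

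AEN and CYFIP2 were called lower in reads. AEN, a nuclease that degrades DNA and RNA in apoptosis, stood at 103.83, 102.23 and 98.91 CPM in siControl and 87.42 and 76.78 CPM in siChe-1. Its change was -0.31 ± 0.11 (SE; adjusted p = 0.0473 by edgeR), just inside the threshold. Its FPKM groups overlapped, with -0.17 by limma (adjusted p = 0.268). edgeR called AEN without siControl replicate 2, but not when any of the other 4 libraries was left out (adjusted p of 0.0536 to 0.247 by edgeR). CYFIP2, a partner of the fragile X protein and part of the WAVE complex, stood at 41.19, 44.88 and 47.40 CPM in siControl and 32.20 and 29.63 CPM in siChe-1. Its groups did not overlap in FPKM either, and its change was -0.53 ± 0.12 (SE; adjusted p = 0.00572 by edgeR). Without siChe-1 replicate 2 that adjusted p was 0.0551 by edgeR.

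The other members with a place in apoptosis were not called by either tool. RPS27L, a ribosomal protein with a near-identical relative (RPS27) whose reads may be shared, came next in abundance after CCNG1 and BTG2. It measured 74.46, 90.75 and 62.89 FPKM in siControl and 82.12, 81.69 and 73.82 FPKM in siChe-1. TP53I3 (PIG3, a quinone oxidoreductase), TP53I13 and EI24, a protein of the endoplasmic reticulum, had overlapping groups in both FPKM and CPM. Relative to other genes, EI24 was called only without siControl replicate 2 (-0.33, adjusted p = 0.0418 by edgeR).

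Of the metabolism and autophagy members, DRAM1 had the largest relative change of all 31, from a very low level. DRAM1 is a lysosomal membrane protein that promotes autophagy. It had 16, 12 and 28 recovered reads in siControl and 51 and 46 in siChe-1, or 0.83, 0.59 and 1.34 CPM against 2.60 and 2.19 CPM. edgeR gave 1.37 ± 0.34 (SE; adjusted p = 0.00914), which missed the threshold without siChe-1 replicate 1 (1.24, adjusted p = 0.0874 by edgeR). Its FPKM groups did not overlap either, at 0.18 to 0.38 in siControl and 0.66 to 0.82 in siChe-1. FDXR is a mitochondrial reductase that feeds electrons to cytochrome P450 enzymes, and C12orf5 (TIGAR) diverts glucose from glycolysis. Relative to other genes edgeR called neither FDXR nor C12orf5, with changes of -0.01 and 0.10.

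**Figure D4:**
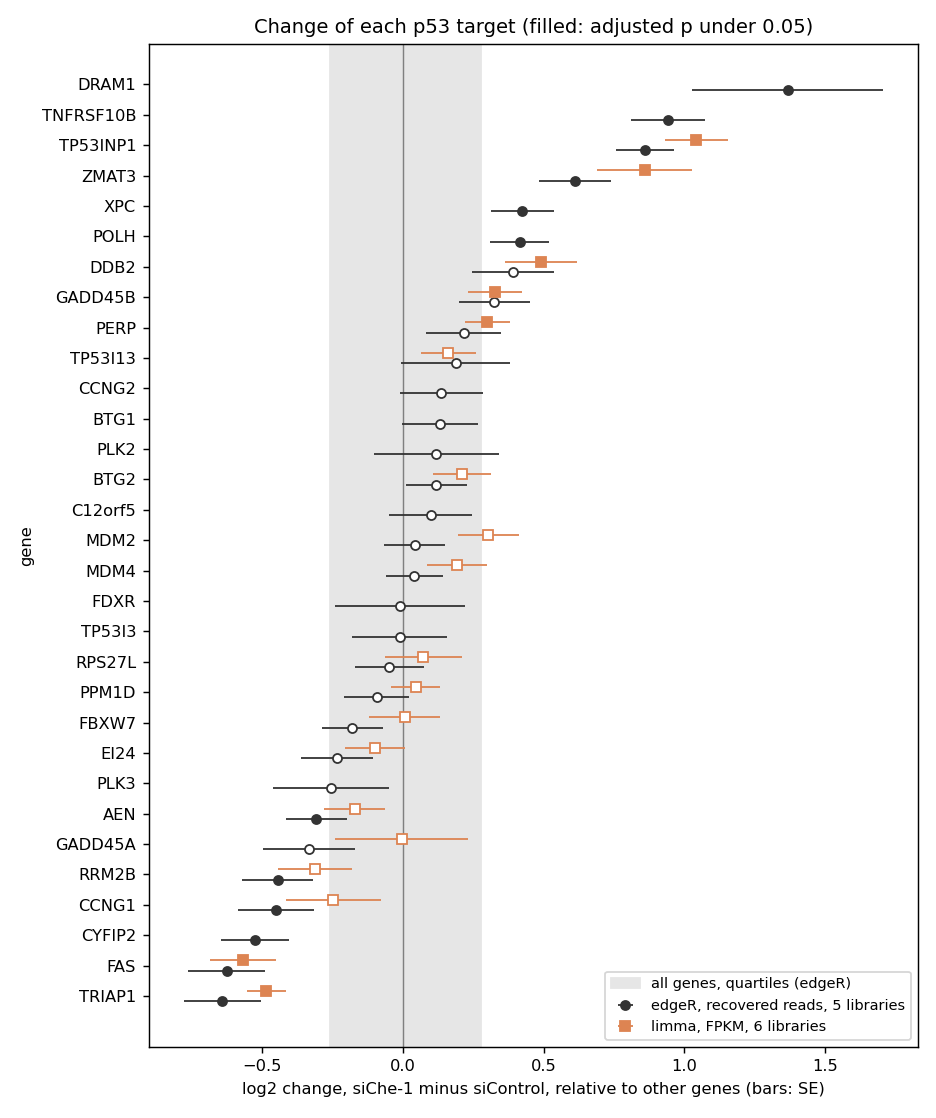
The horizontal axis gives the log2 change, siChe-1 minus siControl, relative to other genes, for 31 p53 targets (vertical axis, ordered by edgeR). Circles are edgeR on recovered reads of 5 libraries, squares limma on FPKM of 6 libraries for the 19 members above the minimum, bars the SE, and filled symbols an adjusted p under 0.05. The grey band holds the middle of all genes by edgeR, from -0.26 to 0.28. Most members lie in or near it, and DRAM1, TNFRSF10B, TP53INP1 and ZMAT3 lie farthest above it.

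Against the spike-ins, where the median of all genes was -1.25, nearly every member was lower in siChe-1. The authors' deposited table called 19 of the 31 lower and none higher, or 61.3% beside 63.6% of 12591 genes, of which 63.5% were lower and 0.0635% higher. edgeR on spike-in size factors called 27 members lower (87.1%) and none higher, beside 84.5% of 12468 genes (84.3% lower, 0.192% higher). The members' median in the authors' deposited table was -1.19, and 30 of the 31 values were negative, as were 98.4% of all genes. The members lay on both sides of the all-gene median, 17 above and 14 below.

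DRAM1 was the 1 member with a positive value in the authors' deposited table, at 0.14. Next came TNFRSF10B at -0.31, TP53INP1 at -0.38 and ZMAT3 at -0.60 in the authors' deposited table, all uncalled. At the other end of the authors' deposited table stood TRIAP1 at -1.91, FAS at -1.85, CYFIP2 at -1.78, RRM2B at -1.67 and CCNG1 at -1.67, all called lower. These positions follow the relative changes above, since the same reads enter both. siChe-1 replicate 3, whose spike-in reads lay within the siControl range, is in none of these values. Without siChe-1 replicate 2, edgeR on the spike-in scale called 5 members and 2824 of 12468 genes lower. Without siControl replicate 1 it called 30 members and 11624 of 12468 genes lower.

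**Figure D5:**
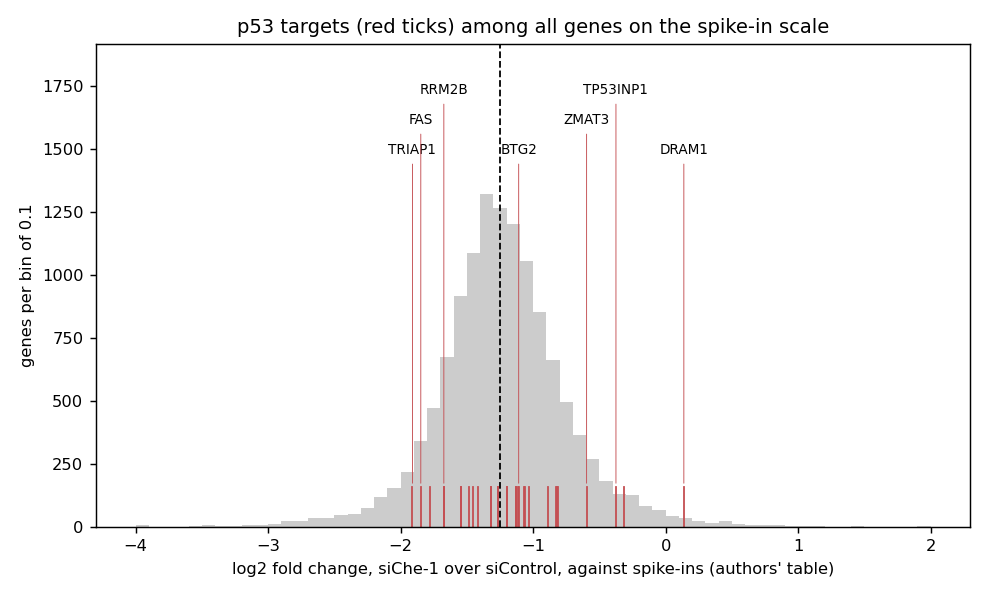
Grey bars count all genes by the authors' log2 fold change against the spike-ins, siChe-1 over siControl, in bins of 0.1 (horizontal axis, log2; vertical axis, genes). The dashed line is the median of all genes, -1.25, and red ticks are the 31 p53 targets. The ticks run from -1.91 (TRIAP1) to 0.14 (DRAM1), on both sides of the line.

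Split by transcript, the members had 49 transcripts in the authors' deposited table, of which 6 were called higher (12.2%) and 3 lower (6.12%) at a q under 0.05. Over all 18716 transcripts of the authors' deposited table the shares were 7.98% and 10.3%, or 18.2% in all. The 6 were both transcripts of TP53INP1 and 1 each of ZMAT3, DDB2, XPC and DRAM1. The 3 were 1 each of TRIAP1, CCNG1 and RRM2B.

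CDKN1A, the p21 inhibitor of cyclin-dependent kinases and the best known arrest gene of the pathway, was higher in reads relative to other genes. It stood at 5.38, 5.94 and 3.58 CPM in siControl and 18.24 and 14.53 CPM in siChe-1. The groups were far apart, and edgeR gave 1.72 ± 0.21 (SE; adjusted p = 7.56e-05), a call that held in all 11 other settings. Against the spike-ins its log2 change was 0.50, beside an all-gene median of -1.25, and the authors' comparison did not call it. One siControl value of CDKN1A is close to 0 FPKM although every siControl library had reads for it, and its 2 transcripts were not called in the authors' deposited table.

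A further 70 p53 targets outside the set were read as a background. Of 26 tested by limma, 7 were higher and 5 lower, with a median of 0.09, beside 15.1% of all genes in each direction. Of 60 tested by edgeR, 13 were higher and 9 lower, beside 14.0% and 14.8% of all genes. The largest rises by limma were those of IER5, an early response gene (9.09 to 20.3 FPKM), PMAIP1 (NOXA, a BH3-only activator of apoptosis; 94.4 to 190 FPKM), SESN2 (24.7 to 36.6 FPKM), E2F7 (16.6 to 24.4 FPKM) and ATF3 (26.2 to 35.5 FPKM), with adjusted p of 0.00187 to 0.0199 by limma. The largest falls were those of the lysosomal fucosidase FUCA1 (19.5 to 11.6 FPKM), the iron-sulfur scaffold ISCU (72.1 to 54.8 FPKM), SESN1 (43.9 to 33.7 FPKM), RAP2B (11.6 to 8.88 FPKM) and TRAF4 (12 to 9.33 FPKM), with adjusted p of 0.00218 to 0.0474 by limma. IER5, RAP2B and TRAF4 passed the FPKM minimum of 10 through 1 group alone. Each was still called at a minimum of 1, but TRAF4 was not called by edgeR. SESN2 and SESN1, related inhibitors of mTORC1, were thus called in opposite directions relative to other genes. BAX, the apoptotic effector, was not called by either tool (19.4 and 18.0 FPKM). Against the spike-ins, the authors' comparison called 32 of 60 of these targets lower and none higher, beside 63.5% and 0.0635% of 12591 genes. IER5, PMAIP1, SESN2, E2F7 and ATF3 were negative and uncalled there, from -0.13 for IER5 to -0.87 for ATF3. FUCA1, ISCU, SESN1, RAP2B and TRAF4 were called lower, at -1.97 to -1.66.

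Among 45 regulators of p53, 31 were tested by limma, with 4 higher and 6 lower (15.1% of all genes in each direction) and a median of -0.06. Of 40 tested by edgeR, 6 were higher and 8 lower (14.0% and 14.8% of all genes). Relative to other genes, the kinase ATM rose from 21.4 to 31.2 FPKM. The p53-binding proteins TP53BP2 and TP53BP1 rose from 31.2 to 41.2 and from 14.5 to 19.2 FPKM. The adjusted p of these 3 ran from 0.00614 to 0.0124 by limma. SETD8, a lysine methyltransferase, measured 8.97 and 11.3 FPKM and passed the minimum only through siChe-1. Its call (adjusted p = 0.0433 by limma) was lost at a minimum of 1 (adjusted p = 0.0589 by limma). TP53BP1 and SETD8 were called by limma and not by edgeR, and NPM1, which was lower by limma, was not tested by edgeR. The falls were those of SETD7, another lysine methyltransferase (91.7 to 49.9 FPKM), the nucleolar protein NPM1 (2042.3 to 1330.0 FPKM), the kinase HIPK1 (19.2 to 13.7 FPKM), the p300 cofactor JMY (13.7 to 9.70 FPKM) and the arginine methyltransferase PRMT5 (71.5 to 55.1 FPKM), with adjusted p of 0.00247 to 0.0359 by limma, followed by KDM1A. The other regulators tested by limma were not called. In the authors' spike-in comparison, 37 of 42 regulators were called lower and none higher, beside 63.5% and 0.0635% of 12591 genes. ATM, TP53BP2, TP53BP1 and SETD8 were among those called lower, from -0.996 for TP53BP1 to -0.91 for ATM. These 4 values lay above the all-gene median of -1.25. SETD7, NPM1, HIPK1, JMY, PRMT5 and KDM1A were called lower there too, at -2.20 to -1.64.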

How the data were processed

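Tables of 3 kinds, deposited by the authors, were used. Per the file headers, the first holds raw read counts of 92 spike-ins for the 6 libraries. The next is the authors' spike-in comparison: a signal per gene and group (reads divided by spike-in size factors and averaged), its log2 ratio and an adjusted p-value, per the file headers. The last lists, per transcript, the authors' FPKM of each library, without replicate numbers, with a log2 and a q-value, per the file headers. TopHat, Cufflinks, Cuffdiff, HTSeq and DESeq2 on hg19 are named in the submitters' processing notes, with no versions.

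FPKM were summed by gene over assembled chromosomes, genes with a mean of at least 10 were kept, a median of ratios gave scale factors of 0.956 to 1.06, and log2(FPKM + 1) was tested with limma 3.58.1 with a mean-variance trend (R 4.3.3). Whole reads were recovered from the authors' group means of the signal, which were whole-read sums only for 5 libraries, without siChe-1 replicate 3. This gave reads for 16321 of 16444 genes (99.3%), all 31 members included. The 123 others, each with a mean above 22907, were left out and held 19.7% of the siControl and 18.9% of the siChe-1 normalized reads. The recovered reads were tested with edgeR 4.0.16 (quasi-likelihood, TMM, or spike-in size factors) where the mean signal was at least 10, and with DESeq2 1.42.0 as an alternative. Scripts were tested on simulated data. Benjamini-Hochberg adjustment was over all genes tested. Members under the FPKM minimum are given by their edgeR value, and single libraries were left out on the spike-in scale. Both were chosen after seeing the data.

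The members, the gene lists and the tests were chosen with earlier results of these data known. Values per library are given for members called by limma or by edgeR with TMM, for MDM2, MDM4, FAS and TNFRSF10B, and for the 3 members with the highest FPKM. Of each reference list up to 5 genes called higher and 5 called lower are named, by size of the limma change, beside AATF and CDKN1A. 1 further gene of this rule is not reported here. Other genes (KDM1A, BAX, GADD45A per library, CD3G, HBB, CD38, XBP1 and IGJ) were named after their values were seen.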

Additional observations from a re-analysis of the deposited data

How the results depend on the processing

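The counts of members called by limma, 5 higher and 2 lower, became 3 higher with FPKM as deposited and 1 lower with the most abundant transcript of each gene. The count lower was 6 with edgeR (TMM), with edgeR on size factors and with DESeq2, and 5 without a filter on low counts. Leaving out 1 library gave 2 to 7 members higher and 1 to 8 lower over both kinds of fit. In reads alone, the 6 higher became 3 to 7 and the 6 lower 1 to 8. Over all genes, 949 higher and 948 lower became 1444 and 1490 at an FPKM minimum of 1, 1465 and 1579 with no minimum, 592 higher with FPKM as deposited, 1747 and 1849 with edgeR (TMM), 1709 and 1888 on size factors, 1785 and 1864 without a filter, and 1586 and 1907 with DESeq2. Leaving out 1 library gave 484 to 1972 higher and 500 to 2147 lower. On the spike-in scale, the authors' 8 genes higher became 24 with edgeR and 6 to 32 with 1 library left out. There the 8001 lower became 2824 to 11624 and the 19 members lower 5 to 30. PERP ranged from -0.028 (without siChe-1 replicate 2) to 0.42 with 1 library left out. The causes were not tested. Where 1 siChe-1 library is left out of the reads, the lone other is assumed to vary like siControl.

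Replicate numbers 1 and 2 are shared by the groups of reads, but nothing says that they pair the libraries (same-number correlations of 0.32 and 0.33, which with 2 siChe-1 libraries mirror those across numbers). With the replicate block, edgeR called 1892 genes higher and 1967 lower and 6 members lower. GADD45B was then called (adjusted p = 0.0434) and DDB2 was not (0.27, adjusted p = 0.108 by edgeR). FPKM values carry no replicate number. The differences between related members kept their sign with a pseudocount of 0.1 and in reads, but PLK2 minus PLK3 went from 0.26 to 0.56, with overlap, at the former. In reads GADD45A minus GADD45B went from -0.33 to -0.62, without overlap, and MDM2 minus MDM4 from 0.11 to 0.0013. The depth of siChe-1 replicate 3 is unknown, and 3 libraries a group limit what could be called.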
